A study of Mus musculus with 16 samples.

Results

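The comparison described here set 4 hippocampal RNA libraries from 5xFAD-Dp16 mice, which carry both a chromosomal duplication and amyloid transgenes, against 4 libraries from 5xFAD mice, which carry the transgenes alone. The libraries were taken by the group name in their titles, numbers 1, 8, 9 and 11 for 5xFAD-Dp16 and 6, 10, 13 and 15 for 5xFAD, and they make up 8 of the 16 libraries of the study. The other 8 libraries, 4 from wild-type (WT) C57BL/6J mice and 4 from mice with the duplication alone (Dp16), served for the same duplication without transgenes. All mice were 9 months old and none is labelled as treated, and each group held 2 females and 2 males. The 5xFAD mice express amyloid transgenes, among them human APP with mutations of familial Alzheimer disease, from a neuronal Thy1 promoter, and both groups compared carried them, so the duplication is the labelled difference. Dp16 mice carry a second copy in tandem of the stretch of mouse chromosome 16 from Lipi to Zbtb21, which leaves its genes in 3 copies. Whether the libraries of one group came from littermates, from one cohort or from one day of dissection is not given in the sources used here.

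Mouse chromosome 16 holds, in one block, the largest group of genes that correspond to human chromosome 21, the chromosome present in an extra copy in Down syndrome. The block includes App, whose protein is cut by the beta and gamma secretases into the amyloid-beta peptide, and people with Down syndrome develop amyloid plaques early. In 5xFAD mice plaques form in the hippocampus and are surrounded by microglia that switch on a set of genes that includes Trem2, Tyrobp, Cst7 and Itgax, together with complement and antigen presentation genes.

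Each of the 8 libraries held 20227287 to 25290750 counts assigned to genes. The labelled tissue was in evidence in all of them: the dentate gyrus marker Prox1 lay between 65.8 and 128.8 CPM (the count relative to the scaled library total), and the CA1 marker Wfs1 between 83.1 and 192.7 CPM. Tissue from next to the hippocampus was not evenly spread. The score of 15 thalamus genes was high in 3 of the 4 5xFAD libraries (6, 13 and 15) and in 1 of the 4 5xFAD-Dp16 libraries (library 1), and Tcf7l2, a thalamic transcription factor, read at least 56.6 CPM in those 4 and at most 10.4 CPM in the others. The choroid plexus transcript Ttr ran from 30.5 to 5607 CPM and followed no group. A score of long against short genes used log2 levels outside the triplicated stretch, set to 0 at each gene's mean over the 5xFAD libraries. It was the median of these values in the longest quintile of genes minus that in the shortest, so its 0 is set by the 5xFAD group. The score was -0.25, 0.11, 0.25 and -0.14 in 5xFAD 6, 10, 13 and 15 and 0.26 to 0.36 in the 5xFAD-Dp16 libraries. It was 0.20 to 0.45 in WT and 0.20 to 0.38 in Dp16. The 4 5xFAD-Dp16 libraries were therefore alike in this score and within the range of the WT mice, while 5xFAD 6 and 15 stood below every other library. Library 5xFAD 10 was also below every library of the other groups, and all 4 5xFAD libraries were below all 4 5xFAD-Dp16 libraries. Fits without the 6 libraries of high thalamus score (those 4, WT 4 and Dp16 14) leave 5xFAD 10 alone in its group, and its spread is then taken to be like that of the other groups.

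Of 17132 genes tested with edgeR's quasi-likelihood test, 52 (0.304%) passed a Benjamini-Hochberg adjusted p of 0.05 and are named called below. Most lay in the triplicated segment and were higher: 42 genes (0.245%) rose in 5xFAD-Dp16 and 10 (0.0584%) fell, and 32 of the 42 rises belonged to the segment. At an unadjusted p under 0.05 the count was 3266 genes (19.1%), and the median log2 fold change of all genes was -0.03. On the deposited RPKM values, limma with a pseudocount of 0.1 called 51 genes, of which 66.7% rose, against 80.8% in the count fit, and with a pseudocount of 1 it called 52, of which 63.5% rose.

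The segment spans chr16:75540514-97962622 in GRCm38, and 384 annotated genes of the table lie in it, 147 of them protein coding. Of these, 105 passed the filter on low counts (90 protein coding, 9 long noncoding and 6 of other types), and 279 did not. Among the 105, 96 had a positive log2 fold change and 9 a negative one, with a median of 0.51, or 1.42-fold, and quartiles of 0.32 and 0.67. All 32 called segment genes were higher in 5xFAD-Dp16, 30.5% of those tested. The 95% confidence interval held a 1.5-fold rise, the ratio of 3 copies to 2, in 79 genes, lay wholly above it in 9 and wholly below it in 17. The 70 segment genes whose mean level reached a log2 CPM of 3 had a median of 0.58, with 67 positive and all 32 calls, and the 35 genes below that level had a median of 0.44 and no call. In 52 of the 70, all 4 5xFAD-Dp16 libraries were higher than all 4 5xFAD libraries, which over all genes was so for 3.46%.

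**Figure D1:**
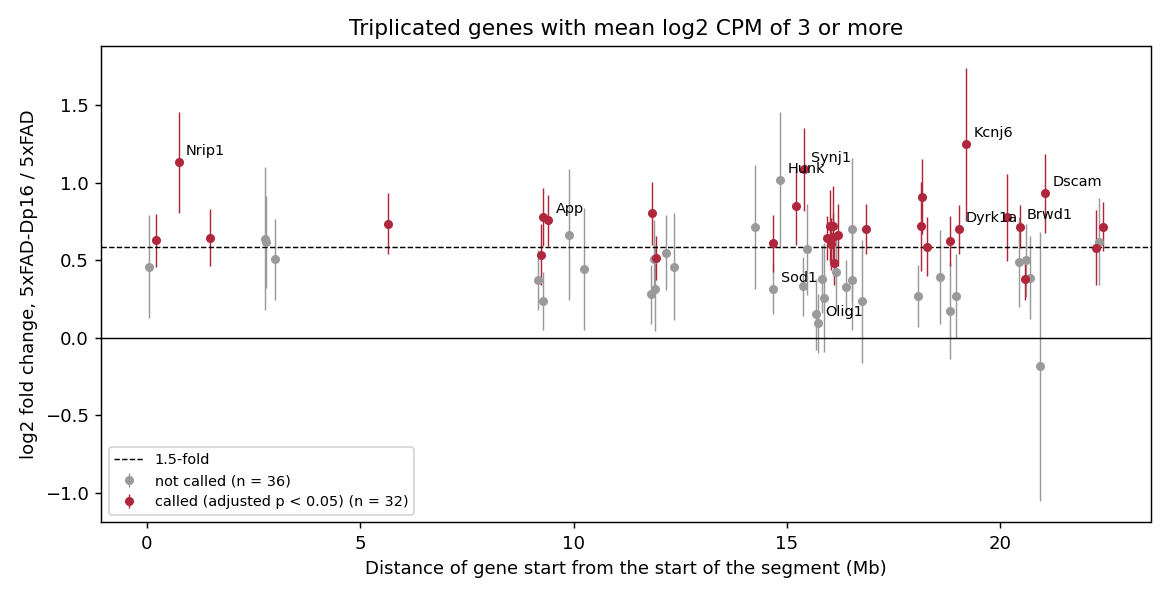
Log2 fold change of segment genes (5xFAD-Dp16 over 5xFAD, vertical axis, with 95% confidence intervals) against the distance of the gene start from the start of the segment in Mb, for genes whose mean level reached a log2 CPM of 3. Points of called genes are red (n = 32) and of others grey (n = 36), the dashed line is a 1.5-fold rise, and Kcne2 and Clic6, whose intervals are wider than 3 log2 units, are not drawn. Most points lie between 0 and 1 along the whole segment.

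App, the precursor of the amyloid-beta peptide (chr16, minus strand), was the most abundant of the segment genes described here. It read 1640, 1837, 1736 and 1764 CPM in 5xFAD libraries 6, 10, 13 and 15 and 2974, 3049, 2971 and 2791 CPM in 5xFAD-Dp16 libraries 1, 8, 9 and 11. The groups were far apart, and the rise was 0.76 ± 0.079 on the log2 scale (SE, n = 4 and 4, edgeR adjusted p = 0.000181). This SE and p rest on a spread estimated in the fit of all 16 libraries. Fitted on the 8 amyloid-bearing libraries alone, App rose by 0.75 with an edgeR adjusted p of 0.058. Whether reads of the human APP transgene count toward mouse App is not given in the sources used here, and App was 0.20 lower in 5xFAD than in WT on the log2 scale. Among 17 other genes of amyloid precursor processing none was called, with a median of 0.07. Bace1, which encodes the beta secretase, had a log2 fold change of 0.29 (adjusted p = 0.116), and Psenen, a subunit of gamma secretase, one of -0.27 (adjusted p = 0.177). Bace2, an App-cleaving relative of Bace1 that lies in the segment, read 3.15 to 6.12 CPM in 5xFAD and 7.78 to 12.5 CPM in 5xFAD-Dp16, without overlap, at 0.95 ± 0.31 and an adjusted p of 0.146.

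The regulators Dyrk1a and Rcan1 rose. Dyrk1a, a kinase that phosphorylates tau and the transcription factor NFAT, read 79.7 to 97.3 CPM in 5xFAD and 132.4 to 153.4 CPM in 5xFAD-Dp16, a rise of 0.70 ± 0.075 (adjusted p = 0.000215). Rcan1, an inhibitor of the phosphatase calcineurin, read 44.2 to 48.1 CPM against 65.3 to 81.8 CPM, also 0.70 (adjusted p = 0.000215). Of 12 calcineurin pathway genes outside the segment none was called, and their median was 0.03.

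Genes of chromatin and transcription held the smallest p of the comparison within the segment. Brwd1, a bromodomain protein, rose by 0.72 ± 0.065 (adjusted p = 5.99e-05) from 57.7 to 67.4 CPM in 5xFAD to 96.1 to 107.6 CPM in 5xFAD-Dp16. Zbtb21, the zinc finger gene at the far end of the segment, rose by 0.72, and Gabpa, a subunit of the GA-binding transcription factor, by 0.78. Nrip1, a nuclear receptor corepressor, rose by 1.13 ± 0.15, from 34.1, 51.8, 37.7 and 31.9 CPM in 5xFAD to 69.3, 99.5, 98.2 and 74.7 CPM in 5xFAD-Dp16. Ets2 rose by 0.78 and the nucleosome-binding gene Hmgn1 by 0.38. The interval of Nrip1 lay above a 1.5-fold rise. Runx1, a hematopoietic factor also expressed by activated microglia, was not called (0.49, adjusted p = 0.197), although its libraries did not overlap.

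The 4 interferon-family receptor genes of the segment were all positive, with a median of 0.51, and 2 were called. Ifnar1, a subunit of the type I interferon receptor, read 37.0 to 38.6 CPM in 5xFAD and 55.8 to 63.8 CPM in 5xFAD-Dp16 (0.64 ± 0.067, adjusted p = 0.000181). Ifngr2, a subunit of the interferon gamma receptor, read 49.8 to 71.6 CPM against 91.9 to 109.1 CPM (0.72 ± 0.11, adjusted p = 0.00414). Ifnar2, the partner of Ifnar1, was at 0.38 (adjusted p = 0.111), and Il10rb, shared by interleukin 10 and interferon lambda receptors, at 0.26 (adjusted p = 0.399). Downstream of the receptors no gene was called: among 49 interferon response genes the median was -0.07 with 33 negative, and among 9 signalling genes outside the segment it was 0.07. The interferon response scores of the 2 groups overlapped, at -0.14 to 0.13 in 5xFAD and -0.29 to 0.15 in 5xFAD-Dp16, with WT at -1.42 to -1.02.

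Neuronal and synaptic genes of the segment included its largest rises. Synj1, the lipid phosphatase synaptojanin 1 that acts in synaptic vesicle recycling, read 295.6, 425.4, 375.1 and 275.7 CPM in 5xFAD and 709.8, 752.2, 771.3 and 678.7 CPM in 5xFAD-Dp16. Its groups were far apart, at 1.09 ± 0.13 (adjusted p = 0.000427). Kcnj6, a G protein gated potassium channel, had the largest fold change of the segment at 1.25 ± 0.23, from 13.4 to 31.7 CPM in 5xFAD to 42.4 to 61.1 CPM in 5xFAD-Dp16, with an adjusted p of 0.0404 that failed in 5 of the 8 fits that left out 1 library. The cell adhesion genes Dscam and Ncam2 rose by 0.93 and 0.74, and the endocytic scaffold Itsn1 by 0.66. Hunk, a kinase gene, had 1.02 but was not called (adjusted p = 0.0576), and the kainate receptor Grik1 was at 0.46 (adjusted p = 0.163). Partners of Kcnj6 outside the segment showed no common direction: of 5 potassium channel and GABA-B receptor genes 3 were positive and none was called.

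Several short genes of mitochondria and antioxidant defence had intervals below a 1.5-fold rise, and none of the 4 named here was called. Sod1, the cytosolic superoxide dismutase, read 214.6 to 256.4 CPM in 5xFAD and 290.3 to 299.4 CPM in 5xFAD-Dp16, so the groups did not overlap, but its 0.31 ± 0.076 missed the threshold (adjusted p = 0.0944). The ATP synthase subunits Atp5j (0.24 ± 0.088) and Atp5o (0.32 ± 0.083) and the mitochondrial ribosomal gene Mrpl39 (0.37) were not called either, at adjusted p of 0.177, 0.0997 and 0.0944. In fits described below and added after seeing the data this changed. With the score of long against short genes as a covariate all 4 were called. Sod1 was then at 0.48, Atp5j at 0.50, Atp5o at 0.565 and Mrpl39 at 0.60 (edgeR adjusted p = 0.0238, 0.0184, 0.0145 and 0.02765). Without 5xFAD 6 and 15, Atp5j, Atp5o and Mrpl39 were called at 0.42, 0.50 and 0.52, and Sod1 was not (0.41, adjusted p = 0.074). The chaperonin subunit Cct8 rose by 0.51, while its 7 partners outside the segment had a median of -0.09 with none called.

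The smallest fold changes of the well expressed segment genes belonged to genes of oligodendrocytes and of neighbouring tissue. Olig1 and Olig2, which specify oligodendrocytes, were at 0.09 ± 0.090 and 0.15 ± 0.11 and overlapped between groups. Pcp4, a calmodulin-binding gene that is abundant in thalamus, read 75.3 to 193.6 CPM in 5xFAD and 89.8 to 186.2 CPM in 5xFAD-Dp16, and in each group the libraries of high thalamus score were the highest. Kcne2 and Clic6, genes of the choroid plexus, were at -0.69 ± 1.6 and -0.04 ± 1.3, and Clic6 ran from 4.36 to 126.9 CPM within 5xFAD alone. In these bulk libraries fewer cells of a type and less RNA per cell cannot be told apart.

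Tested genes next to the segment were not called. Robo1 and Robo2, axon guidance receptors in front of it, were at 0.29 and 0.28, and the nearest tested gene, Gm49678, at a low level, was at 1.29 ± 0.50 (adjusted p = 0.19). Inside, Rbm11 was at 0.46 and not called, and Hspa13, the first called gene, rose by 0.63. At the other end Zbtb21 rose by 0.72 and the next 2 tested genes, B230307C23Rik and A630089N07Rik, were at -0.31 and 0.04. The 412 tested genes on the rest of chromosome 16 had a median log2 fold change of -0.0037. Of these 2 were called, Stxbp5l and Tbx1, against 20 of 17027 genes (0.117%) outside the segment.

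The same duplication without transgenes, Dp16 against WT, called 39 genes (0.228%), 36 of them in the segment, and shares no library with the comparison above. Its segment median was 0.56, or 1.48-fold. The comparisons called 26 genes in common, 50% of the 52 and 66.7% of the 39, all in the same direction, of which 23 lay in the segment. Another 9 segment genes were called only with the transgenes (Nrip1, Scaf4, Urb1, Son, Cbr3, Dop1b, Kcnj6, Ets2 and Prdm15) and 13 only without them (Mrpl39, Atp5j, N6amt1, Rwdd2b, Grik1, Sod1, Cfap298, Cryzl1, Atp5o, Cbr1, Vps26c, Wrb and C2cd2). The test of the difference itself, the interaction of duplication and transgenes, called 0 of 17132 genes (0%) in edgeR and 0 in DESeq2. In edgeR 1114 (6.5%) had an unadjusted p under 0.05, and the smallest adjusted p was 0.718. Without a low-count filter edgeR called 290 of 32180 genes in the interaction. For segment genes 9 of 105 (8.57%) were under 0.05 unadjusted, 7 of them with the lower log2 fold change in the presence of the transgenes, including Cldn14 (-0.55) and Sh3bgr (-0.38), both at low levels and not called. Atp5j had the smallest unadjusted p of these, 0.0113, at 0.24 with and 0.60 without the transgenes. Of the 2 genes in the other direction, Nrip1 was at 1.13 with and 0.60 without, and Brwd1 at 0.72 and 0.50.

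**Figure D2:**
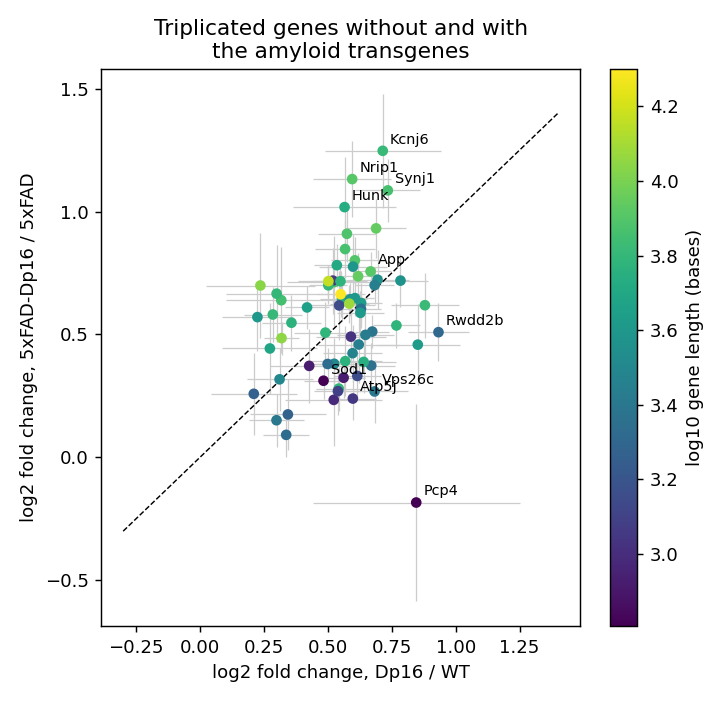
Log2 fold change of the 68 plotted segment genes with the transgenes (5xFAD-Dp16 over 5xFAD, vertical axis) against that without them (Dp16 over WT, horizontal axis), with bars of 1 SE and colour for log10 of the gene's length in bases. The dashed line marks equal values. Long genes such as Kcnj6, Nrip1 and Synj1 lie above it, and short ones such as Atp5j, Sod1 and Rwdd2b lie below it. There are exceptions, with the long genes Jam2 and N6amt1 below the line and the short genes Cbr3 and Btg3 above it.

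The 2 sets differed in the length of their genes. The median length, as implied by the deposited counts and RPKM values, was 6543 bases for the 9 called only with the transgenes and 2294 bases for the 13 called only without. Split at the middle, the 35 shorter of the 70 better expressed segment genes had a median log2 fold change of 0.38 with 10 called, and the 35 longer 0.66 with 22 called. In Dp16 against WT the values were 0.59 and 0.57, with 18 called in each. The same gradient ran through the genes outside the segment, where the median log2 fold change went from -0.19 in the shortest quintile (up to 1675 bases) through -0.10, -0.04 and 0.02 to 0.12 in the longest (5327 bases and more), and the share of positive genes from 26.4% to 70.1%. In Dp16 against WT the 5 medians lay between -0.02 and 0.01, and in 5xFAD against WT, which shares the 5xFAD libraries, they went from 0.18 to -0.15.

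With the score of long against short genes as a covariate, a fit added after seeing the data, the medians of the quintiles outside the segment lay between -0.02 and 0.00, which follows from how the score is built, from the longest and shortest quintiles themselves. In that fit 26 genes were called, 24 in the segment. Genes at an unadjusted p under 0.05 then numbered 701 (4.09%) in place of 3266. The score did not overlap between the groups compared, so this fit separates it from genotype only in part. A call lost in it therefore does not tell gene length and the duplication apart. Without 5xFAD 6 and 15, also added after seeing the data, 38 genes were called, 33 in the segment, and the medians of the quintiles still went from -0.08 to 0.05. The segment median was 0.58 and 0.57 in these fits. Without 5xFAD 6 and 15 the calls outside the segment were 5, with agouti and Slc5a5 higher. Among those lower were Gusb, a lysosomal enzyme (-0.65, adjusted p = 0.00859), and Tmem119, a microglial membrane protein (-0.47, adjusted p = 0.0322), neither of which was called with all libraries.

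**Figure D3:**
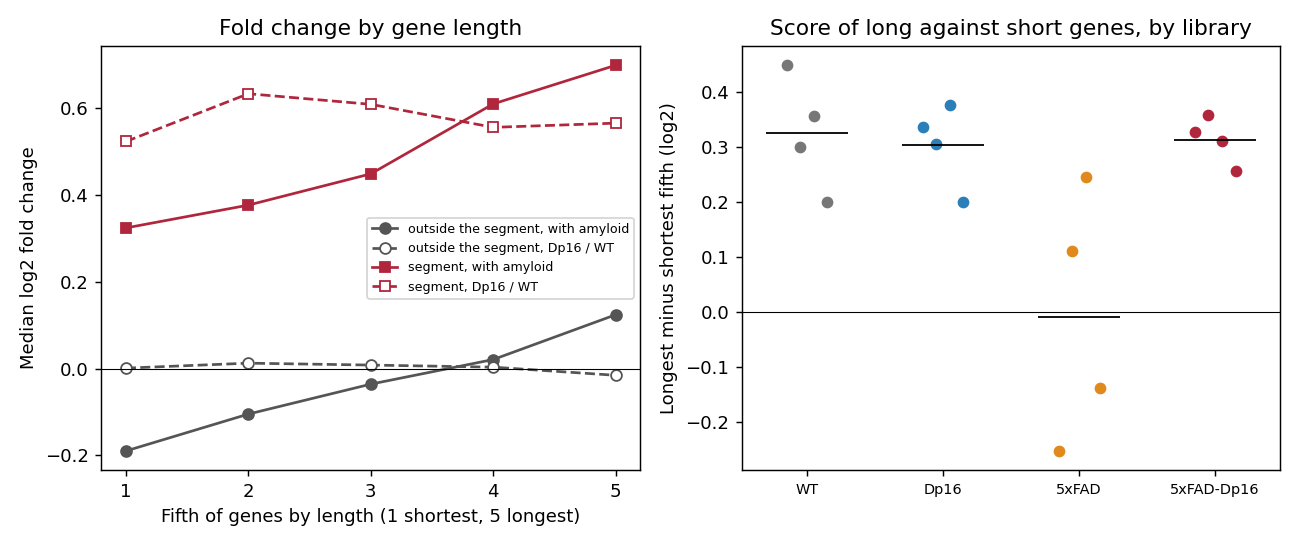
Left, the median log2 fold change in each quintile of genes by length for segment genes (red) and genes outside it (grey), in 5xFAD-Dp16 over 5xFAD (filled, solid lines) and in Dp16 over WT (open, dashed lines). Right, the score of long against short genes in each library of the 4 groups, with group means as lines and 0 set by the 5xFAD libraries. In it 5xFAD 6 and 15 are the only libraries below 0.

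Outside the segment 20 of 17027 genes were called (0.117%), 10 higher and 10 lower. In all 20 the libraries of the 2 groups did not overlap, which over all genes was so for 7.35%. The 20 were picked by their p in these same libraries, so the lack of overlap is no separate support. Leaving out each library in turn kept 4 of the 20 called in all 8 fits, against 25 of the 32 in the segment. Those 4 were agouti (gene symbol a), Slc5a5, Cbs and Plk5, and the first 3 were also called in Dp16 against WT.

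Agouti, a signalling protein that sets coat colour in skin, was nearly absent without the duplication. It had 3 counts in the 4 5xFAD libraries together and 179 in the 4 5xFAD-Dp16 libraries, each of which had 1.27 to 3.28 CPM. The ratio was 66.8, with a 95% counting interval of 22.5 to 327.1 (exact binomial, counting error only, since reads are not independent molecules), and edgeR's adjusted p was 5.99e-05. Without transgenes it had 1 count in WT and 163 in Dp16, a ratio of 150 (26.6 to 5964). The annotated gene lies at chr2:154791402-155051012, on another chromosome than the duplication. Whether the reads counted for agouti came from that locus was not tested.

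Slc5a5, the sodium iodide symporter (chromosome 8), read 23.2, 24.8, 25.4 and 26.4 CPM in 5xFAD and 40.7, 36.2, 39.1 and 35.6 CPM in 5xFAD-Dp16. It rose by 0.60 ± 0.085 (adjusted p = 0.00202), against 0.71 in Dp16 over WT. Cbs, cystathionine beta-synthase, the first enzyme of transsulfuration (chromosome 17), read 31.6, 26.5, 28.6 and 31.2 CPM in 5xFAD and 17.7, 19.8, 19.0 and 18.2 CPM in 5xFAD-Dp16. It fell by 0.66 ± 0.095 (adjusted p = 0.00236), and by 0.77 in Dp16 against WT. The human ortholog of Cbs lies on chromosome 21, but the mouse gene is outside the triplicated segment, and of 38 tested orthologs on mouse chromosomes 10 and 17 Cbs was the one called. With the length score as a covariate agouti stayed called, while Slc5a5 (0.50, adjusted p = 0.293) and Cbs (-0.56, adjusted p = 0.289) kept their direction and lost the call. That score did not overlap between the groups compared, so the fit separates it from genotype only in part.

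The promoters of these 3 genes, the ones outside the segment called with and without transgenes, are shown beside that of App, a triplicated gene. Each is the RefSeq window in GRCm38.p6 from 250 bases before to 50 bases after the annotated start, 5′ to 3′ on the gene's strand, and capitals mark a GC box, GGGCGG or its reverse complement CCGCCC. App lies at chr16:85173658-85173957, Slc5a5 at chr8:70892708-70893007, Cbs at chr17:31637156-31637455 and agouti at chr2:155013320-155013619.
App: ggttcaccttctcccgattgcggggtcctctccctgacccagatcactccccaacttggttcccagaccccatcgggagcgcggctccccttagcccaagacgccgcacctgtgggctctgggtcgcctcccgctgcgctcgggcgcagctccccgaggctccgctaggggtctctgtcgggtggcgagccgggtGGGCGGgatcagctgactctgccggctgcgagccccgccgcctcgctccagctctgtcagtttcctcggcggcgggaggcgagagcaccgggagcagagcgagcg
Slc5a5: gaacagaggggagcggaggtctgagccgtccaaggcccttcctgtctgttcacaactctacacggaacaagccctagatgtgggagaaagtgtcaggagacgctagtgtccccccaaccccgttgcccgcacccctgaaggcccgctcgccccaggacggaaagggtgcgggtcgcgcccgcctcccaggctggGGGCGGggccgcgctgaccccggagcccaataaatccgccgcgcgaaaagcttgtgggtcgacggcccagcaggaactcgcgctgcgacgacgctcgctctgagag
Cbs: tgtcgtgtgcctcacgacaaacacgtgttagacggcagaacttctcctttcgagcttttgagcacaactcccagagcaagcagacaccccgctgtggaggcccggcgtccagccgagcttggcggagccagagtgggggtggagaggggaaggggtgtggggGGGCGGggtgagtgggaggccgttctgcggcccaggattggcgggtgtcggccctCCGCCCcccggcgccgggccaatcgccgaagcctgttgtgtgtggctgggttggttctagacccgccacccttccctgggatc
Agouti: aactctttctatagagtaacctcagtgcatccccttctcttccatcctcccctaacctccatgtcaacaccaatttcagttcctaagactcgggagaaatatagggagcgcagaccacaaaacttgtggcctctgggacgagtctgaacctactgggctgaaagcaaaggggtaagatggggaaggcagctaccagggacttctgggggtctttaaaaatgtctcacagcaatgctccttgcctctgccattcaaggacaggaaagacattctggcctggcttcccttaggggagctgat
A GC box was present once in App, once in Slc5a5, 2 times in Cbs and 0 times in agouti, and in 35.7% of all 32851 RefSeq promoter windows. A TATA box (TATAAA, either strand) was in none of the 4 and in 13.6% of all windows, and a CCAAT box (CCAAT, either strand) occurred 2 times in Cbs, once in Slc5a5 and once in agouti, with 37.4% of all windows holding one. The App, Slc5a5 and Cbs windows held 30, 29 and 22 CG dinucleotides against a median of 7, and the agouti window 3. The agouti window lies inside the annotated gene and not at its outer end, and the counts do not show which start was used.

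Plk5, a polo-like kinase gene expressed in dentate granule cells, read 20.5, 18.4, 17.9 and 25.2 CPM in 5xFAD and 9.09, 8.70, 8.69 and 11.2 CPM in 5xFAD-Dp16, with no overlap. It fell by 1.12 ± 0.17 (adjusted p = 0.0049), and in Dp16 against WT it was at -0.49 and not called. It was the only called member of 12 dentate granule cell genes, whose median was -0.11. Tbx1, a T-box transcription factor on chromosome 16 in front of the segment, read 1.31 to 2.27 CPM in 5xFAD and 0.311 to 0.568 CPM in 5xFAD-Dp16. It fell by 1.97 ± 0.39 (adjusted p = 0.0452), and was at -1.995 in Dp16 against WT, where the adjusted p was 0.0508. Its call was lost in 5 of the 8 fits that left out 1 library.

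**Figure D4:**
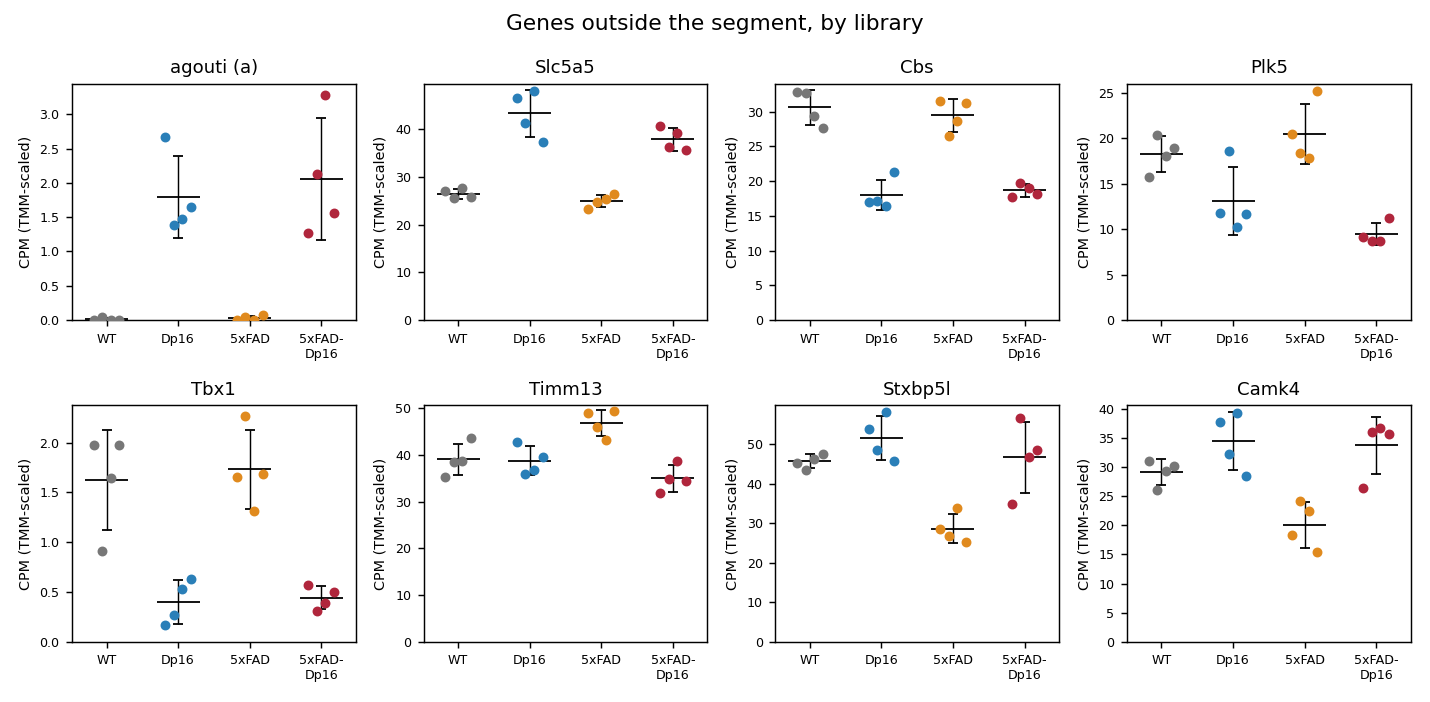
CPM (scaled by TMM) of 8 genes outside the segment in every library of the 4 groups, with group means as lines and 1 SD as bars. Agouti, Slc5a5, Cbs and Tbx1 differ between the groups with and without the duplication whether or not the transgenes are present, whereas in Timm13, Stxbp5l and Camk4 the mean of the 5xFAD group is the one away from the other 3.

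The other 15 genes called outside the segment each lost the call in at least 2 of the 8 fits that left out 1 library. The rises were Stxbp5l, a syntaxin-binding protein (0.71), Camk4, a calcium/calmodulin-dependent kinase of neurons (0.75), the vesicle phosphatase Synj2 (0.44), the protocadherin Pcdhb11 (0.85), the scaffold Pakap (0.60), the antisense transcript Cdr1os (0.60), Arap2 (0.41) and 2410018L13Rik (1.48). The falls were Timm13, a chaperone of mitochondrial protein import (-0.42), the histone gene H3f3a (-0.40), the phosphatase subunit Ppp4c (-0.41), Pik3r3 (-0.50), Ccdc107 (-0.51), Fam50a (-0.50) and AW047730 (-0.70). Camk4 read 18.4, 24.2, 22.4 and 15.4 CPM in 5xFAD and 26.4, 36.0, 36.8 and 35.7 CPM in 5xFAD-Dp16, and 26.1 to 31.1 CPM in WT. Timm13 read 43.2 to 49.3 CPM in 5xFAD and 31.9 to 38.8 CPM in 5xFAD-Dp16, and 35.2 to 43.5 CPM in WT. Camk4 was thus lower in every 5xFAD library than in every WT library, and for Timm13 the 5xFAD and WT ranges touched. Of the 17 genes called only with the transgenes, all 17 had the opposite sign in 5xFAD against WT, a comparison that shares the 5xFAD libraries, and 15 had the same sign in Dp16 against WT. Reads of H3f3a and Pcdhb11 can be shared with near-identical relatives, and Pakap and Cdr1os overlap other transcripts, so their values are uncertain where counting could split them.

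Calls outside the segment depended on single libraries. Without 5xFAD 10, the one 5xFAD library of low thalamus score, 1995 genes outside the segment were called, without 5xFAD 13 151, and without 5xFAD-Dp16 1 55. Without 5xFAD-Dp16 8, 9 or 11 the counts were 7, 6 and 9, and without 5xFAD 6 or 15 they were 4 and 11. Without the 6 libraries of high thalamus score 65 were called, 4 of them among the 20. All 20 kept their direction there, in females and in males. For genes without overlap between the groups, any subset of these libraries gives the same direction, so this is no separate support. With the length score as a covariate all 20 also kept their direction, and only agouti of the 20 was called.

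The amyloid response of microglia was measured by lists in which no gene was called. Of 32 plaque-associated microglia genes 30 were negative, with a median of -0.44 against -0.03 over all genes, and in 4 of them all 5xFAD-Dp16 libraries were below all 5xFAD libraries, which over all genes was so for 3.89%. Trem2, the lipid-sensing receptor of microglia, read 137.7, 99.8, 96.4 and 64.5 CPM in 5xFAD and 76.1, 60.8, 63.8 and 75.4 CPM in 5xFAD-Dp16, at -0.52 ± 0.15 (adjusted p = 0.124). The groups overlapped through 5xFAD 15, the 5xFAD library with the lowest score of this list. Tyrobp, its signalling adapter, was at -0.67 (adjusted p = 0.0997), Cst7 at -0.51 (adjusted p = 0.424) and Itgax at -0.63 (adjusted p = 0.235). At an unadjusted p under 0.05 were 14 of the 32, against 19.1% of all genes. In 5xFAD over WT, which shares the 5xFAD libraries and called 1244 genes (7.26%), the list's median was 2.25. List scores were 0.35, 0.03, 0.08 and -0.46 in 5xFAD and -0.12, -0.49, -0.58 and -0.34 in 5xFAD-Dp16, and -2.70 to -2.19 in WT.

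Several other lists of microglia, lysosomes and astrocytes had negative medians without a call, while 9 interferon receptor signalling genes (0.07) and 7 lymphocyte and neutrophil genes (0.45) had positive ones. The median was -0.24 for 16 homeostatic microglia genes, -0.32 for 14 complement genes, -0.18 for 34 lysosome genes and -0.20 for 26 reactive astrocyte genes. The complement genes C1qa, C1qb and C1qc were at -0.37, -0.40 and -0.44, while C4b, which astrocytes also make, was at 0.36 (adjusted p = 0.187). The 6 class II antigen presentation genes had a median of -0.91, and their scores did not overlap: -0.20 to 0.17 in 5xFAD and -0.99 to -0.32 in 5xFAD-Dp16. Of the 39 lists, only this one and the interferon receptor cluster of the segment had scores without overlap. Only 1 of the 6 genes had an unadjusted p under 0.05, which over all genes was so for 19.1%. H2-Aa, a class II chain, read 15.3 to 24.1 CPM in 5xFAD and 6.97 to 15.2 CPM in 5xFAD-Dp16 (-1.08 ± 0.51, adjusted p = 0.268). Dp16 against WT had a class II median of -0.72, and 1 WT library stood at -0.56 where the other 3 were at -2.95 to -2.14. Meningeal fibroblast genes also had a negative median, -0.69, with 12 of 13 negative and none called. Their scores were -0.36 to 0.42 in 5xFAD and -1.49 to 0.62 in 5xFAD-Dp16. In 5xFAD-Dp16 1, 8, 9 and 11 the class II scores were -0.51, -0.97, -0.99 and -0.32. The meningeal scores there were 0.62, -1.02, -1.49 and -1.33. Whether meningeal tissue had a part in the class II result was not tested. Gfap, the intermediate filament of reactive astrocytes, was at -0.21 ± 0.14 (adjusted p = 0.404).

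Lists of neurons did not share a direction: of the 12 dentate granule cell genes 11 were negative, as given above with Plk5. All 16 excitatory neuron genes and all 30 synaptic protein genes were positive, with medians of 0.45 and 0.33. None was called, and 9 and 12 of them had an unadjusted p under 0.05, which over all genes was so for 19.1%. Nrxn3, a presynaptic adhesion protein, was at 0.48 (adjusted p = 0.0771), the active zone scaffold Pclo at 0.76 (adjusted p = 0.0997), and the CA1 gene Wfs1 at 0.79 (adjusted p = 0.0654), with 83.1 to 136.7 CPM in 5xFAD and 163.9 to 192.7 CPM in 5xFAD-Dp16. The synaptic scores were -0.14, 0.45, 0.15 and -0.45 in 5xFAD, where 5xFAD 10 lay within the 5xFAD-Dp16 range of 0.35 to 0.47. Without the libraries of high thalamus score the synaptic median was -0.03 and the excitatory one 0.10, and with the length score as a covariate they were 0.03 and 0.05. Without 5xFAD 10 alone they were 0.56 and 0.72. For 18 immediate early genes the median, 0.31, became -0.08 without the libraries of high thalamus score and 0.67 without 5xFAD 10.

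Oxidative phosphorylation genes, which are short, leaned down: 29 of 30 were negative, with a median of -0.24. An unadjusted p under 0.05 was found for 21 of them, against 19.1% of all genes, and none was called. Cox7c, a subunit of cytochrome oxidase, was at -0.39 (adjusted p = 0.0829) and Ndufa1, a subunit of complex I, at -0.30 (adjusted p = 0.0692). The median was 0.01 with the length score as a covariate and -0.06 without the libraries of high thalamus score. Antioxidant genes outside the segment had a median of -0.20, which became -0.01 with the length score. The plaque-associated microglia median moved less, to -0.31 with the length score and -0.48 without the libraries of high thalamus score, and that of class II genes was -0.88 and -1.05.

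**Figure D5:**
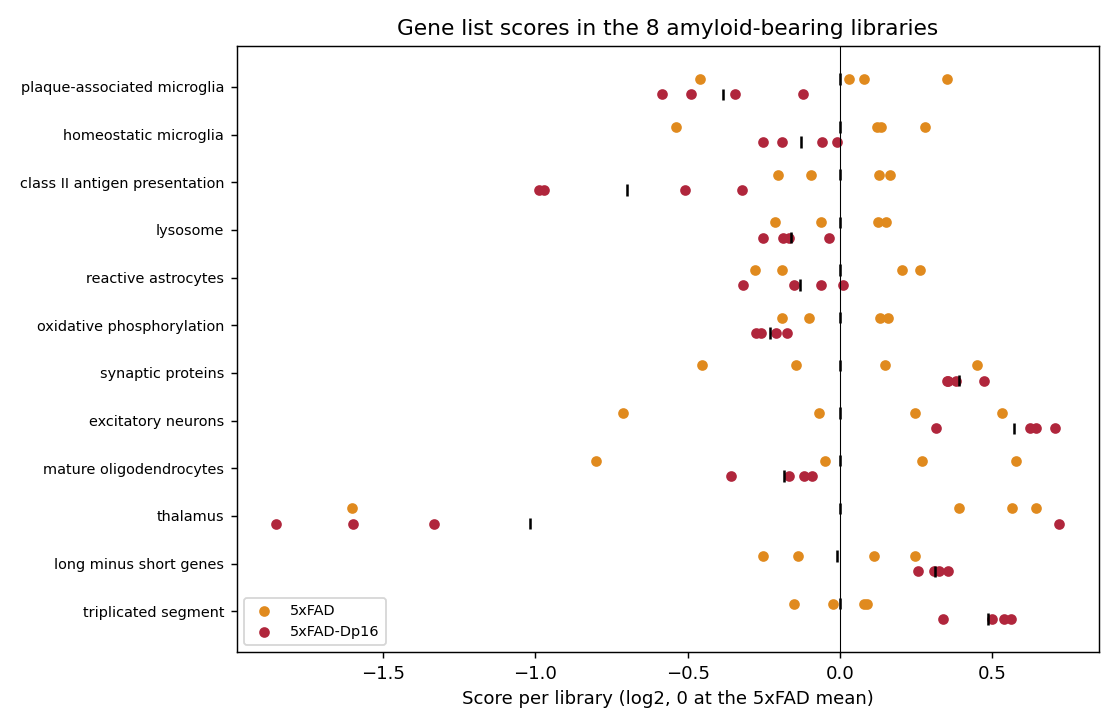
Scores of 12 gene lists in the 4 5xFAD (orange) and 4 5xFAD-Dp16 (red) libraries, as mean log2 CPM of the list with 0 at the 5xFAD mean and black ticks at group means. The row of long minus short genes is a difference of medians on values set to 0 at each gene's 5xFAD mean. The triplicated segment, class II antigen presentation and long minus short genes (-0.25 to 0.25 in 5xFAD, 0.26 to 0.36 in 5xFAD-Dp16) are rows without overlap. Thalamus scores overlap but are uneven, being high in more of the 5xFAD than of the 5xFAD-Dp16 libraries. Synaptic and oxidative phosphorylation scores are spread in 5xFAD and tight in 5xFAD-Dp16.

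The remaining lists gave no call. Mature oligodendrocyte genes had a median of -0.28, against 0.51 in the fit that left out libraries of high thalamus score and 0.24 with the length score, and the 15 thalamus and 14 choroid plexus genes were all negative, with medians of -0.66 and -0.82 and score SDs of 1.1 and 2.5 within 5xFAD alone. Leaving out 1 library took the thalamus median from -1.46 (without 5xFAD-Dp16 1) to -0.28 (without 5xFAD-Dp16 9), and that of choroid plexus from -3.03 (without 5xFAD-Dp16 8) to 0.26 (without 5xFAD 13), which turned its sign. Cholesterol biosynthesis genes had a median of 0.13, close to the 0.16 of Dp16 against WT, with 18 of 24 positive, and Hmgcs1, an early enzyme of that pathway, was at 0.38 (adjusted p = 0.0996). Over all 639 list genes tested outside the segment 2 were called, Cbs and Plk5, against 20 of 17027 genes (0.117%) outside the segment.

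A difference of the effect between sexes was not detectable with these libraries. The segment median was 0.52 in females and 0.49 in males, with 98 and 91 of 105 genes positive. The test of a sex difference in the effect called 0 genes in edgeR, with 791 (4.62%) at an unadjusted p under 0.05, from 2 libraries of each sex and group.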

How the data were processed

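Polyadenylated RNA of 16 hippocampi was sequenced in strand-specific paired-end libraries, per the labels' protocols. HISAT2 2.1.0, HTSeq 0.6.1, SAMtools 1.5, FastQC 0.11.5, bcl2fastq and the build GRCm38 are listed in the submitters' processing notes. The authors deposited raw counts per gene and RPKM values, and the strand setting of the counting is not given in the sources used here. On the files each RPKM equalled the deposited count divided by the library's total and a fixed gene length (largest relative spread 7.66e-15). No pair of libraries of a group was a duplicate (smallest chi-square per gene 6.24).

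Genes with a minimum count of 10 (filterByExpr) were tested in R 4.3.3 with edgeR 4.0.16, using TMM scaling, robust quasi-likelihood fits of 4 genotype groups plus sex over all 16 libraries, and Benjamini-Hochberg adjustment over all genes with a threshold of 0.05. Segment genes were placed by gene ID in GENCODE M21, which placed 55144 of 55385 IDs. The script was tested on simulated data. Alternatives were RLE scaling, other filters, DESeq2 1.42.0, limma 3.58.1 on log2(RPKM + 0.1) and log2(RPKM + 1), left-out libraries, each sex, and scores for thalamus, choroid plexus and gene length, the last 2 and a fit of the 8 libraries with the thalamus score being chosen after seeing the data. High thalamus score means above 0.5, with 0 at the WT mean. CPM values are scaled by TMM, list scores are mean log2 CPM, and list genes exclude the segment except the interferon receptors. P-values measure the spread between these libraries, 1 per mouse by the design text.

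The members and lists were chosen with earlier results of these data known. Named genes were called genes from outside the segment, by size of rise or fall, without overlap between groups and not predicted genes, the segment genes of smallest p and of largest and smallest fold change, the members of smallest p of each list, and a set of anchor genes. AW047730, 2410018L13Rik, Gm43272, Gusb, Tmem119 and the genes at the segment's edges lie outside that rule and were added after their values were seen, as were the segment genes called in 1 of the 2 comparisons. Promoters came from RefSeq (GRCm38.p6). Some items are not reported here.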

Additional observations from a re-analysis of the deposited data

Results flagged for a closer look

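In 11 of 164 groups of 4 libraries (6.71%), over named genes and list scores, 1 library lay far from the other 3 by the gap test of Dixon, which chance gives in about 1 in 20 groups.

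Of these, 7 concerned 5xFAD-Dp16 library 1, the one library of that group with a high thalamus score. Camk4 was at a log2 CPM of 4.72 there and at 5.16 to 5.20 in the other 3. Its scores were 0.094 for App processing genes (others 0.018 to 0.026), -0.639 for dentate granule cells (others -0.129 to -0.10), -0.001 for oligodendrocyte precursors (others -0.241 to -0.236) and 0.302 for mural cells (others -0.629 to -0.514). They were 0.545 for immediate early genes (others 0.239 to 0.265) and 0.085 for chromosome 21 orthologs outside the segment (others -0.084 to -0.058).

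The other flags were spread over 3 libraries. Fam50a was at a log2 CPM of 3.88 in 5xFAD-Dp16 8, against 4.09 to 4.12. The calcineurin score was 0.005 in 5xFAD-Dp16 9, against 0.083 to 0.092. In 5xFAD 10 the thalamus score was -1.60 (others 0.392 to 0.645) and the cholesterol biosynthesis score 0.152 (others -0.059 to -0.04).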

How the results depend on the processing

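The segment median kept its sign in every fit run, and no called gene named here reversed. Counts moved. Without a low-count filter 1656 genes were called (57 in the segment, 1599 outside it, 166 in lists outside the segment) and 290 in the interaction. DESeq2 called 638 (56, 582 and 37). With only the 8 amyloid-bearing libraries 10 were called (9, 1 and 0), and 0 in all 4 counts once the thalamus score was added (907 genes at an unadjusted p under 0.05 in edgeR). Females alone, 2 against 2, gave 0 in all 4 counts (1349 unadjusted), and males 8 (6, 2 and 0). With the thalamus score in the full fit 33 were called outside the segment. Without the libraries of high thalamus score, 101 were called (65 outside, 5 in lists), 15 in the interaction, and the segment median was 0.63. With the length score 26 were called (2 outside, agouti and Gm43272, and 0 in lists), and without 5xFAD 6 and 15 5 outside. With limma on RPKM, 4 list genes were called at a pseudocount of 0.1 and 5 at 1, where the segment median was 0.29, on a scale that understates low genes. Leaving out 1 library gave 32 (without 5xFAD-Dp16 9) to 2045 calls (without 5xFAD 10), 26 to 50 in the segment, 4 to 1995 outside and 2 to 119 in lists. The cause of these changes was not tested, and the smaller fits also held fewer libraries. RLE scaling, a minimum count of 30 and no sex term left all 6 counts and medians within 1.5 times or 1 SD. Of 936 list medians under alternatives 53 moved by more than 1 SD, and of 3746 values of named genes 324 lost and 217 gained a call. No paired analysis was possible because the numbers in the titles are unique to each library. With 4 mice a group, and 279 of 384 segment genes below the count filter, small changes and rare transcripts were beyond this depth.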

Other observations

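No gene of these further cell type lists was called. The 14 CA1 and CA3 pyramidal cell genes had a median log2 fold change of 0.40 with 12 positive, and the 15 inhibitory neuron genes one of 0.22 with 11 positive, in which Reln, made by interneurons, was at 0.52 (edgeR adjusted p = 0.135) and Gad1, a GABA-synthesizing enzyme, at 0.01. Astrocyte, endothelial and mural cell genes had medians of -0.19, -0.17 and -0.24, with 12 of 15, 9 of 12 and 10 of 12 negative. Oligodendrocyte precursor genes outside the segment had a median of -0.12, and Enpp6, which marks newly forming oligodendrocytes, was at -1.04 (adjusted p = 0.0978) against -0.59 in Dp16 over WT. Blood cell genes had a median of 0.42 and lymphocyte and neutrophil genes one of 0.45, both with scores that overlapped between the groups. Leaving out 1 library took the first from 0.16 (without 5xFAD-Dp16 8) to 1.03 (without 5xFAD 13), and the other to -0.17 without 5xFAD-Dp16 1.

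Heat shock genes had a median of 0.11, with 12 of 14 positive against 45.6% of all genes, and 5 at an unadjusted p under 0.05 against 19.1% of all genes. Of 16 class I antigen presentation genes 13 were negative, with a median of -0.15. The other medians were -0.01 for 18 genes of the unfolded protein and integrated stress responses, -0.05 for 15 p53 targets, -0.08 for 15 proliferation genes and -0.01 for 33 Alzheimer risk orthologs. Among the last, Sorl1, a sorting receptor for App, was at 0.51 without overlap between the groups (adjusted p = 0.105), and Apoe, an apolipoprotein made mainly by astrocytes, at -0.42 with overlap (adjusted p = 0.115).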
